A study of Arabidopsis thaliana with 6 samples.

Results

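The 10 genes that set the pattern of hair and non-hair cells in the root epidermis were followed in root tips of wild-type *Arabidopsis thaliana* and of the *an3* mutant. They were taken as the rows of the deposited expression table that hold the locus of *WER*, *MYB23*, *GL2*, *CPC*, *TRY*, *ETC1*, *GL3*, *EGL3*, *TTG1* or *SCM*, and each of the 10 was found in a row of its own among 33201 rows. The series compared the loss-of-function line *an3* with the wild type Columbia (Col), with 3 samples of each genotype. Each sample was the root tip, about 5 mm long, of seedlings grown for 5 days in long days on solid MS medium with sucrose. AN3 (GIF1), a co-activator of transcription and a partner of the GRF factors, promotes cell proliferation in leaves. In roots the authors describe a role of AN3 in repressing growth, with longer roots in *an3* than in the wild type. The mutant was sequenced to look for genes that act downstream of AN3. The table gives 1 FPKM value per genotype (fragments normalized to transcript length and to library size) for the 3 samples together. Values of single samples are not part of it, so no spread, error or test was computed for any gene, the comparison that the authors deposited beside these values was not used, and the depth of the samples is unknown.

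In the root epidermis, a cell that lies over the cleft between 2 cortex cells forms a hair, and a cell that lies over a single cortex cell does not. In the non-hair cell, the MYB protein WER, or its relative MYB23, joins a bHLH protein (GL3 or EGL3) and the WD40 protein TTG1 in a complex that switches on *GL2*, whose product holds back the hair programme. The same complex switches on *CPC* and its relatives. These encode short R3-MYB proteins, which lack an activation domain, move into the neighbouring cell and compete there with WER for the bHLH partner, so that this cell can form a hair. The receptor-like kinase SCM, also named STRUBBELIG, carries the positional cue to the epidermis.

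*AN3* (AT5G28640) itself had 21.5 FPKM in Col against 2.55 FPKM in *an3*, which is 11.9% of the Col level and matches the labels. The labels call the tissue meristematic, yet genes of differentiating cells were abundant in it, with 443.7 FPKM in Col for the hair cell expansin gene *EXPA7* and 681.4 FPKM for the endodermal gene *CASP1*. The tips were thus not meristem alone. *GL1*, which takes the place of *WER* in leaf trichomes, was listed at 0 FPKM in both genotypes.

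The FPKM levels of the 10 genes covered a range of 13.6-fold in Col and 17.6-fold in *an3*. In Col the order from high to low was *GL2*, *WER*, *TTG1*, *CPC*, *MYB23*, *GL3*, *EGL3*, *ETC1*, *TRY* and *SCM*. *GL2*, at 27.7 FPKM, lay above 76.5% of the rows with a value over 0 in Col, and *SCM*, at 2.03 FPKM, above 28.1% of them. In *an3* the order was *GL2*, *TTG1*, *WER*, *CPC*, *MYB23*, *GL3*, *TRY*, *EGL3*, *SCM* and *ETC1*. *WER* and *TTG1* thus exchanged places, *TRY* moved from position 9 to position 7, and *ETC1* from position 8 to position 10. With no replicate values it cannot be said which neighbours in these orders differ beyond their spread.

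**Figure D1:**
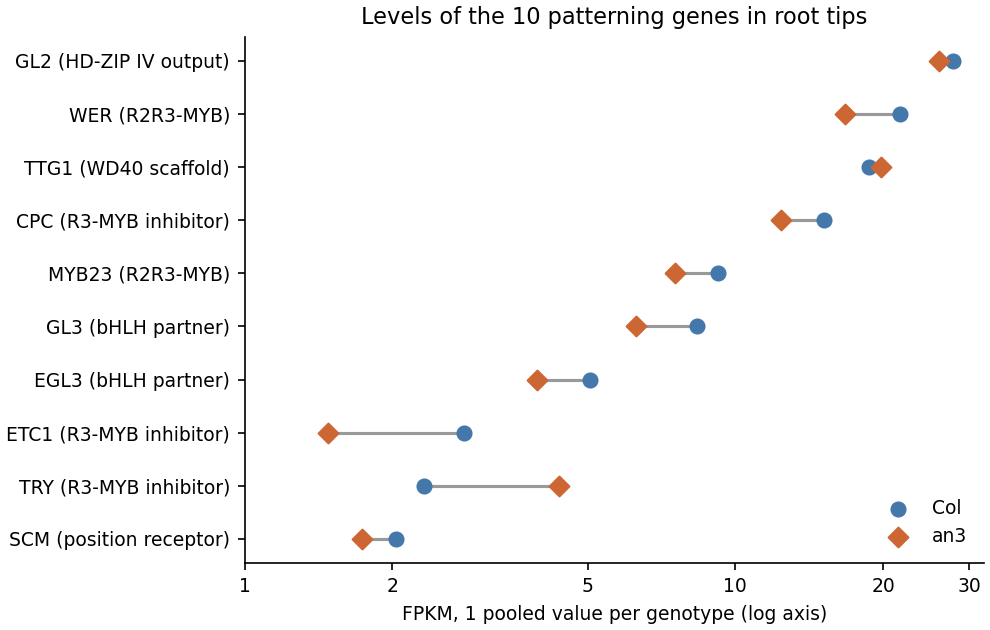
FPKM of each of the 10 patterning genes in Col (circles) and *an3* (diamonds) on a log axis, with 1 pooled value of 3 samples per genotype and no error bars. The diamond lies to the left of the circle for 8 genes and to the right for *TTG1* and *TRY*, and *TRY* and *ETC1* have the longest lines.

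Ratios were taken as the log2 ratio of *an3* over Col after 0.1 FPKM was added to each value, which slightly understates the change of low genes. With 1 value per genotype, a gene was called only by size, at a difference of at least 1.5-fold with a mean of at least 1 FPKM. By this rule 7.01% of the 16971 rows of a single locus with that mean were called, 3.92% higher and 3.09% lower in *an3*. All 10 patterning genes reached the minimum. *TRY* was called higher and *ETC1* lower, and the other 8 were not called. The median log2 ratio of the 10 genes was -0.29, against -0.0033 over all 16971 rows, and 8 of the 10 ratios lay below 0, against 50.6% of all rows. Ratios of weakly expressed genes scatter more. From the 5th to the 95th percentile they ran from -0.76 to 0.86 for rows with a mean of 1 to 3 FPKM and from -0.39 to 0.41 for rows with a mean of 10 to 30 FPKM. The call by size held for 18.6% of the first group and for 3.64% of the second, so the calls of weakly expressed genes weigh less.

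**Figure D2:**
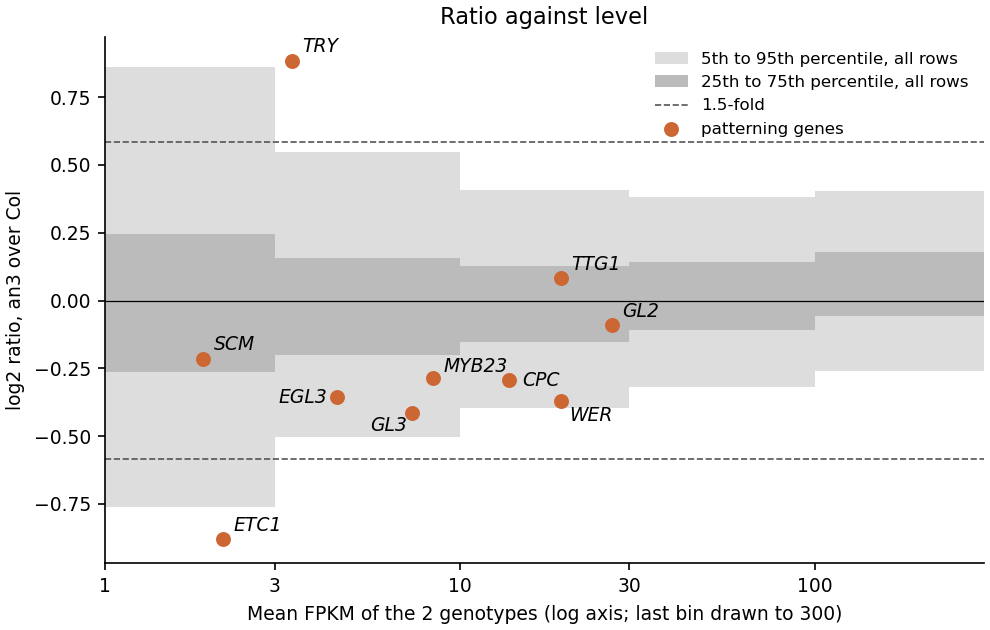
Log2 ratio of *an3* over Col against the mean FPKM of the genotypes (log axis) for the 10 patterning genes (points), over the 5th to 95th percentile (light) and 25th to 75th percentile (dark) of all rows of a single locus in 5 bins of level. *TRY* and *ETC1* lie outside the light band and past the dashed lines at 1.5-fold, *SCM*, *GL2* and *TTG1* lie within the dark band, and the other 5 lie between the bands' lower edges.

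The pair of R2R3-MYB genes had lower values in *an3*, neither of them past 1.5-fold. *WER* (AT5G14750, chromosome 5), which specifies the non-hair cell, had 21.7 FPKM in Col against 16.8 FPKM in *an3*, a log2 ratio of -0.37. That ratio was at percentile 5.78 of the rows of its level. *MYB23* (AT5G40330, chromosome 5), which maintains the non-hair fate by a positive feedback and can stand in for *WER*, had 9.22 and 7.54 FPKM, a log2 ratio of -0.29. The genes kept nearly the same proportion to each other, as *WER* made up 70.2% of their summed FPKM in Col and 69.0% in *an3*.

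The bHLH partners gave values of the same kind. *GL3* (AT5G41315, chromosome 5) had 8.37 FPKM in Col against 6.26 FPKM in *an3*, a log2 ratio of -0.41, the lowest of the 8 genes that were not called. *EGL3* (AT1G63650, chromosome 1), its partly redundant copy, had 5.07 and 3.94 FPKM, a log2 ratio of -0.36. *GL3* had 1.65 times the FPKM of *EGL3* in Col and 1.59 times in *an3*. *MYC1*, another bHLH gene of the same subgroup, was more abundant than either, at 12.1 FPKM in Col against 9.45 FPKM in *an3* (log2 ratio -0.36). All of these bHLH genes were below 0 and none was past 1.5-fold, and their summed FPKM was 25.6 in Col and 19.7 in *an3*.

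*TTG1* (AT5G24520, chromosome 5), the WD40 scaffold that both bHLH proteins bind, did not share this direction. It had 18.7 FPKM in Col against 19.8 FPKM in *an3*, a log2 ratio of 0.08, and lay at percentile 68.5 of the rows of its level. Its relatives *LWD1* and *LWD2*, known for a part in the circadian clock, had log2 ratios of 0.01 and 0.20. None of the genes of the complex was past 1.5-fold, with ratios from -0.41 to -0.29 for the MYB and bHLH genes and 0.08 for *TTG1*.

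*GL2* (AT1G79840, chromosome 1), the homeodomain gene that the complex switches on, was the most abundant of the 10 genes in both genotypes. It had 27.7 FPKM in Col against 26.0 FPKM in *an3*, a log2 ratio of -0.09, at percentile 36.4 of the rows of its level. *GL2* therefore had 1.28 times the FPKM of *WER* in Col and 1.55 times in *an3*. *GL2* made up 59.7% of the summed FPKM of the 16 HD-ZIP IV genes, its family, in Col and 63.2% in *an3*. *ANL2*, the next in level, had 11.7 and 9.53 FPKM (log2 ratio -0.30), *HDG7* and *HDG1* had log2 ratios of -0.45 and -0.36, and the other 12 genes had less than 1 FPKM in both genotypes.

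The R3-MYB inhibitors held the only members past 1.5-fold, and these went in opposite directions. *CPC* (AT2G46410, chromosome 2), the main inhibitor of the root, had 15.2 FPKM in Col against 12.4 FPKM in *an3*, a log2 ratio of -0.29. *TRY* (AT5G53200, chromosome 5), named TRIPTYCHON for the clustered trichomes of its mutant, had 2.32 FPKM in Col against 4.37 FPKM in *an3*, 1.88 times the Col level. Its log2 ratio of 0.88 was at percentile 98.2 of the rows with a mean of 3 to 10 FPKM, of which 4.34% were called higher. The mean of *TRY*, 3.35 FPKM, lay close to the lower limit of that group, and its Col value lay below that limit. Of the rows with a mean of 1 to 3 FPKM, 10% were called higher, and the 95th percentile of their ratios was 0.86. *ETC1* (AT1G01380, chromosome 1), a further R3-MYB inhibitor of the *CPC* type, had 2.80 FPKM in Col against 1.48 FPKM in *an3*, 52.8% of the Col level. Its log2 ratio of -0.88 was at percentile 3.52 of the rows with a mean of 1 to 3 FPKM, of which 8.54% were called lower. Both are weakly expressed genes with a single value per genotype, and neither reached 2-fold. *TRY* went from 0.828 to 2.96 times the FPKM of *ETC1*.

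The make-up of the inhibitors differed more than their sum. The 3 genes summed to 20.3 FPKM in Col and to 18.2 FPKM in *an3*. The share of *CPC* in that sum was 74.8% in Col and 67.9% in *an3*, that of *TRY* 11.4% and 24.0%, and that of *ETC1* 13.8% and 8.12%. The R2R3-MYB genes summed to 30.9 and 24.3 FPKM. The inhibitors had 0.658 times the summed FPKM of *WER* and *MYB23* in Col and 0.750 times in *an3*. Without *CPC* and *WER*, the highest gene of each class, these values were 0.556 and 0.776. This variant keeps *TRY*, the only inhibitor with a higher value in *an3*. It therefore cannot show how far the change in proportion rests on that weakly expressed gene, and the proportion without *TRY* was not computed. In *an3*, *CPC* had 0.82 times and *ETC1* 0.53 times its Col level, against 0.79 times for the summed R2R3-MYB genes. Relative to that sum, *CPC* was thus nearly unchanged and *ETC1* was lower. The higher proportion in *an3* should not be read as a shift shared by the inhibitors. Of the other R3-MYB genes of the *CPC* type, *ETC2*, *ETC3*, *TCL1* and *TCL2*, all 4 were listed at 0 in both genotypes. *HDA18*, a histone deacetylase gene known from the patterning of the root epidermis, was listed at 0 as well. Without read counts, such a 0 may come from the quantification and does not show that a gene is not expressed.

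**Figure D3:**
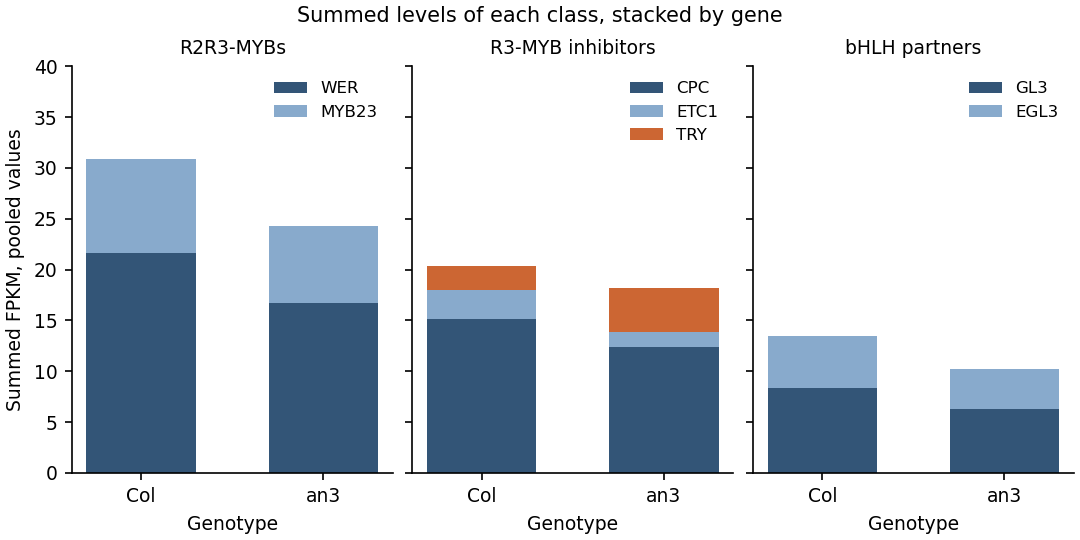
Summed FPKM of the R2R3-MYB genes, the R3-MYB inhibitors and the bHLH partners in Col and *an3*, stacked by gene from pooled values without error bars. The R3-MYB bars are 20.3 and 18.2 FPKM high, and the share of *TRY* in them is 11.4% in Col and 24.0% in *an3*.

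*SCM* (AT1G11130, chromosome 1), the receptor of the positional cue, was the lowest of the genes in Col, with 2.03 FPKM against 1.74 FPKM in *an3*. Its log2 ratio of -0.21 was at percentile 29.1 of the rows of its level. Several of its relatives were more abundant in the same tips, and *SRF3*, *SRF6*, *SRF7* and *SRF8* each had at least 27.6 FPKM in both genotypes. *SCM* made up 0.791% of the summed FPKM of the 9 genes of the STRUBBELIG receptor family in Col and 0.677% in *an3*, with the row of *SRF4* shared by another locus. Genes that work with it were not called. *QKY*, a membrane protein of the same pathway, had a log2 ratio of -0.35, and *JKD*, a zinc finger gene that acts from the cortex on epidermal patterning, had 26.1 and 25.9 FPKM. *GEM*, a modulator of *GL2* expression, had a log2 ratio of 0.11.

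Beyond the 10 genes, 63 genes of 6 related lists were read in the same way, and 39 of them reached a mean of 1 FPKM. None was called higher and 1, *RHD6*, was called lower, against 3.92% and 3.09% of all rows. *RHD6*, a bHLH gene that starts hair formation and is repressed by GL2, had 24.0 FPKM in Col against 15.9 FPKM in *an3*, a log2 ratio of -0.59 that lies at the limit of the call and was not called with 1 FPKM added in place of 0.1. Of the 9 targets of GL2 and WER, 6 had ratios below 0, with a median of -0.19 and a range from -0.59 to 0.27. The list holds both repressed and activated targets, so its median does not stand for a single direction of regulation. *RSL2*, a later hair gene, had 52.5 and 36.0 FPKM (log2 ratio -0.54), while *LRL1* and *LRL2* of the same list had log2 ratios of -0.08 and 0.27. *TTG2*, which the complex switches on along with *GL2* in non-hair cells, had 7.90 and 8.88 FPKM (log2 ratio 0.17).

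Markers of hair cells and of other tissues were read beside these values. All 10 hair cell markers had ratios below 0, against 50.6% of all rows. Their ratios ran from -0.48 to -0.11 with a median of -0.22. Their summed level was 3101 FPKM in Col and 2685 FPKM in *an3*. The 8 endodermis markers had a median of 0.25 and summed to 1942 and 2423 FPKM. The 6 ratios above 0 were those of *CASP1* to *CASP5* and *ESB1*, while those of *SCR* (-0.24) and *MYB36* (-0.05) lay below 0. The 3 root cap markers of at least 1 FPKM had a median of 0.15. The 3 stele markers of at least 1 FPKM had a median of -0.10. None of these tissue markers was called. The 4 shoot and photosynthesis markers were all called lower, from 73.6 to 28.8 FPKM in sum. Their log2 ratios were -1.64 for *CAB1*, a light-harvesting protein gene, -1.31 for *PSBO1* of photosystem II, -1.04 for the Rubisco gene *RBCS1A* and -1.01 for the Rubisco activase gene *RCA*. In RNA of whole root tips, fewer epidermal cells and less RNA of these genes per cell cannot be told apart, and the part of tissue make-up in the values of the patterning genes was not tested.

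**Figure D4:**
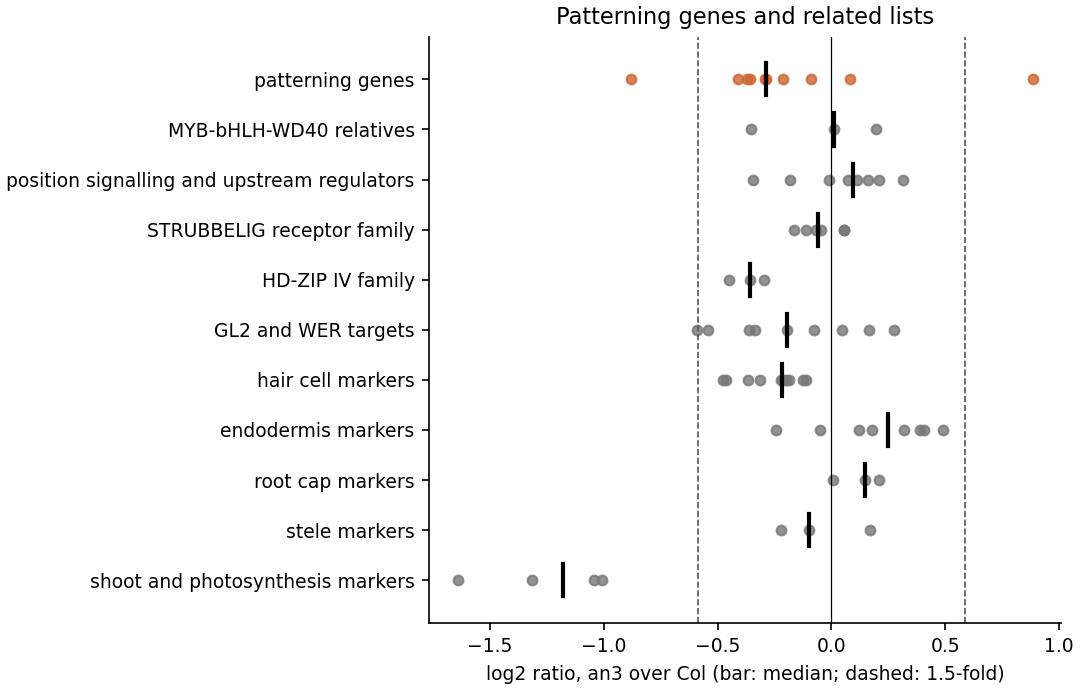
Log2 ratio of *an3* over Col of each gene with a mean of at least 1 FPKM in the patterning genes, the 6 related lists and 4 lists of tissue markers (1 point per gene, bar at the median, dashed lines at 1.5-fold). The median is -0.29 for the patterning genes, -0.22 for the hair cell markers and 0.25 for the endodermis markers.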

How the data were processed

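RNA was sequenced from root tips of 3 *an3* and 3 Col samples with 100 bp single-end reads. Within TuxNet, the authors used fastq-mcf for trimming, HISAT2 for alignment and Cufflinks for expression levels and their comparison. The tool versions, the build and the annotation were not given in the sources used here. FPKM was deposited as 1 estimate per genotype, for its 3 samples together. The table also holds the authors' own comparison, a deposited log2 fold change and a deposited q-value, in 2 columns that were not used. Of the 33201 rows, 282 hold several loci and 10640 are listed at 0 in both genotypes. The columns sum to 833287 FPKM for Col and 869161 FPKM for *an3*.

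Ratios, the call by size, percentiles in bins of mean FPKM (1, 3, 10, 30 and 100 as lower limits) and class sums were computed with Python 3.11.15, pandas 2.3.3 and numpy 2.4.6, with figures from matplotlib 3.10.9. The ratios and calls were tested on simulated data. The background is the rows of 1 locus whose mean reached 1 FPKM. The members and lists were chosen with earlier results of these data known. The named genes are the 10 members, *AN3*, every listed gene called at 1.5-fold and the R3-MYB relatives *ETC2*, *ETC3*, *TCL1* and *TCL2*, and the other genes were named after their values were seen. All 95 listed loci matched the RefSeq names table of TAIR10.1, which was used for names and chromosomes only, as no source names the build of the table. A BLAST 2.17.0 search of the exons of the 10 members against that genome (at least 70% identity) found no alignment of 100 bases or more at another place for *CPC*. The highest identity for the others was 90.2%, between 133 bases of *GL3* and *EGL3*. A comparison of protein sequences had been planned and was not run. The alternatives were other pseudocounts, scalings, fold limits, minimum levels and backgrounds.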

Additional observations from a re-analysis of the deposited data

How the results depend on the processing

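Of the alternatives, only the 2 rescalings could turn a direction, and each of the 10 patterning genes kept its direction under both. The median log2 ratio of the 10 genes ran from -0.35 to -0.27. The value of -0.35 came from scaling both columns to the same sum. That scaling also moved the median of all rows from -0.0033 to -0.0639. *TRY* was called higher and *ETC1* lower with 0.01 or 1 FPKM added, with either rescaling, with no minimum and with all rows as the background. Their log2 ratios ran from 0.69 to 0.91 and from -0.94 to -0.62. With a limit of 2-fold, or with the minimum raised to 5 FPKM, 0 members were called higher and 0 lower. *TRY* and *ETC1* reach neither that limit nor that level. Few of all rows were called either, 1.15% higher and 0.79% lower at 2-fold. With the raised minimum the share was 3.93% in either direction. The counts of 0 therefore do not set the members apart from all rows. With a lower limit, an absolute log2 ratio of 0.32, *WER*, *GL3* and *EGL3* were also called, so that 4 members were lower and 1 was higher, against 10.3% and 11.4% of all rows. Of the 63 genes in the related lists, 39 reached the minimum of 1 FPKM, which does not apply in the setting without a minimum. The number called lower was 0 with 1 FPKM added or at 2-fold. It was 2 with both columns scaled to the same sum or with no minimum, and 11 at the limit of 0.32. The share of all rows called in either direction was 4.47% with 1 FPKM added and 1.94% at 2-fold. That share was 7.75% with both columns scaled, 9.46% with no minimum and 21.7% at the limit of 0.32. No paired analysis was possible because the table holds 1 pooled value per genotype, and leaving out single replicates was not run for the same reason. As the depth is unknown, no error can be given for weakly expressed genes such as *TRY*, *ETC1* and *SCM*.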
